A study of Mus musculus with 2 samples.

Results

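Progression through the G1 phase of the cell cycle is driven by cyclins that bind cyclin-dependent kinases (CDKs) and held back by CDK inhibitors, and the transcription factor MYC connects growth signals to this machinery. D-type cyclins pair with CDK4 and CDK6, cyclin E pairs with CDK2, and both kinds of kinase phosphorylate the RB protein so that E2F factors can switch on the genes of S phase. TCF-1, the HMG-box factor encoded by Tcf7, binds DNA together with beta-catenin in the Wnt pathway, and Myc and Ccnd1 are textbook targets of that pathway in colon cancer cells. Described here are 10 genes of cell cycle entry: Myc, Myb, the cyclin genes Ccnd1, Ccnd2, Ccnd3 and Ccne1, the kinase genes Cdk6 and Pim1, and the CDK inhibitor genes Cdkn1a and Cdkn1b.

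The 10 genes were chosen by name, with earlier results of these data known. An island was assigned to a gene when it overlapped the RefSeq gene body or the 10 kb on either side by at least 1 bp. An island is a stretch of clustered reads reported by the peak caller. Of 19531 islands in the deposited table, 23 lay at the 10 genes, and none of the 23 was shared between them. For Myc, islands up to 2 Mb away were counted as well.

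Chromatin immunocleavage sequencing (ChIC-seq) uses an antibody to bring micrococcal nuclease to a chromatin-bound protein, here with an anti-TCF-1 antibody, and the released fragments are sequenced. The cells were mouse lymphoid tissue inducer (LTi) cells, innate lymphoid cells needed for the formation of lymph nodes, of the C57BL/6 strain and sorted in both samples as negative for lineage markers, KLRG1, NK1.1 and NKp46 and positive for CD127 and CCR6. The 2 samples of 500 cells each were Tcf7fl/fl-VavCre cells from small intestinal lamina propria, in which Cre under Vav control deletes Tcf7 across blood cells, and Tcf7+/+ cells from Peyer's patches. Genotype and tissue differ together and each group has 1 library, so their effects cannot be told apart and no difference has a replicate check. The table's header names a peak and a control library and no sample. Since neither could be tied to a genotype, every comparison is of the peak with the control library and not of the genotypes.

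In the islands the peak library had 483771 reads (peak reads below) and the control library 189291 (control reads), while total library depth is unknown. A fold is the peak-library reads over the control-library reads times 1.997, the scaling factor behind the fold column that the authors deposited. Intervals are exact 95% intervals for counting error alone, since each group has 1 library. Nuclear islands held at least 7 peak reads but as few as 0 control reads, so places with control reads alone are missing. Such a choice by peak reads can raise folds, most of all in islands with few reads, and the intervals leave it out. Whether PCR copies of 1 molecule were removed is not known, and if they were kept the intervals are too narrow. The false discovery rate (FDR) of an island is the authors' value from a test that treats the control reads as free of error, and islands with an FDR of 0.05 or less are termed called. As background serves the pooled fold of 1.62 (interval 1.61 to 1.63) over 19513 nuclear islands, those with 200 or more peak reads left out. Islands lay at all 12 marker genes of LTi cells and group 3 innate lymphoid cells (ILC3) and at 2 of 6 epithelial markers. They also lay at all 7 B cell markers, at 5 of 7 T cell markers, and at 4 of 6 markers each of NK cells with group 1 innate lymphoid cells (ILC1) and of myeloid cells, beside 54.7% of all protein-coding genes. The part of other cell types in the results at the 10 genes was not tested.

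Promoters inside islands are shown first, because the read-rich islands of several of the 10 genes lie over a transcription start. RefSeq promoter windows, each 250 bases before and 50 after a start, were at hand for 7 of the 10 genes, and Myc, Ccnd1 and Ccnd2 had none. The windows at the first start of Ccnd3, Ccne1, Cdkn1b and Pim1 lay wholly inside an island. Their 250 bases before the start follow, 5′ to 3′ on the strand of the gene (RefSeq, GRCm38.p6, the mm10 build). Capitals mark GC boxes (GGGCGG on either strand) and, in Ccnd3, a FOXO motif (TGTTTAC).
Ccnd3, chr17:47504801-47505050, plus strand: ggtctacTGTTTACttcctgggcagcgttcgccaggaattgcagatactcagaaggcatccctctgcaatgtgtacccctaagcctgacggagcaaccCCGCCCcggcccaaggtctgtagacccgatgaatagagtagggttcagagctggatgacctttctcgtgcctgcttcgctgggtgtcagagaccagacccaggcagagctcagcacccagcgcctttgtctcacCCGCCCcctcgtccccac
Ccne1, chr7:38107491-38107740, minus strand: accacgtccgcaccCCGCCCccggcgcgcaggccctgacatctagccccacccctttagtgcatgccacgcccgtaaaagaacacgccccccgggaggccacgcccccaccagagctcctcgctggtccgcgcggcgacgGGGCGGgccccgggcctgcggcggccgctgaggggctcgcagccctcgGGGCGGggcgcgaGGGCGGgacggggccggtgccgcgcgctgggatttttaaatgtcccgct
Cdkn1b, chr6:134920151-134920400, plus strand: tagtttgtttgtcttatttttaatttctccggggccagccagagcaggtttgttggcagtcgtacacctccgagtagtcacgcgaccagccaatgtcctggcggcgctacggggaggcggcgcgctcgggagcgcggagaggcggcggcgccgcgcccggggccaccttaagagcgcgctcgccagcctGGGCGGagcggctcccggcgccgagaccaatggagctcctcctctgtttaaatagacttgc
Pim1, chr17:29490535-29490784, plus strand: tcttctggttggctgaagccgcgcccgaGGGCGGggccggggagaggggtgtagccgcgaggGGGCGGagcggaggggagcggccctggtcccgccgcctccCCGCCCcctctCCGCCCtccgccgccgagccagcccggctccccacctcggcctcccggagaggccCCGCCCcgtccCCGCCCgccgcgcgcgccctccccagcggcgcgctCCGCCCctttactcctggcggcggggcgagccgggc

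The upstream stretches of Pim1, Ccne1 and Cdkn1b were rich in G and C, while that of Ccnd3 lay within the quartiles of all windows. The GC content was 82.4% at the first start of Pim1, 76.0% at Ccne1, 64.4% at Cdkn1b and 59.6% at the first start of Ccnd3, beside a median of 52.4% (quartiles 45.2% and 61.2%) over the 32851 RefSeq windows. A GC box lay in 7 of the 10 windows of these genes, against 32.7% of all windows, and the first start of Pim1 had 7 of the 20 matches. The TCF/LEF motif, searched on both strands as CTTTGAA or else CTTTGAT or else CTTTGTA or else CTTTGTT, was found in none of the 10 windows and in 14.8% of all. An E-box (CACGTG), the kind of sequence that MYC and MAX bind, lay before the second start of Pim1 and before the start of Cdk6, and in 6.02% of all windows. A FOXO motif also lay before the second start of Pim1, and 3.17% of all windows held one. None of the 10 windows held an E2F motif (TTTCGCGC or else TTTGGCGC or else TTTCCCGC or else TTTGCCGC, 1.86% of all windows), a STAT motif (TTCNNNGAA, 7.02%) or a cyclic AMP response element (TGACGTCA, 1.55%). No base in the 4 stretches shown lay under more than 1 motif. A match describes the letters and is not a binding site, and a window without one says nothing about the factor.

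Islands lay at 9 of the 10 genes, all but Ccnd1, with folds between 0.462 and 5.76 where the control library had reads. An island lay at 54.7% of all 21887 protein-coding genes. A called island lay at 5 of the 10 genes (Myb, Ccnd3, Cdkn1a, Cdkn1b and Pim1), against 40.3% of protein-coding genes. Among the 23 islands 7 were called, a share of 30.4%, against 62.6% of all nuclear islands. At an FDR of 1e-05 or less the shares were close, with 4 of the 23 islands (17.4%) against 20.7% of all islands. The median fold of the 23 islands was 1.25 (quartiles 1.02 and 1.69), against a median of 1.84 (1.25 and 3.17) over all nuclear islands. A fold below 1 was found in 6 of the 23 islands, against 10.2% of nuclear islands, and in none did the whole interval lie below 1 (0.184% of nuclear islands).

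The 23 islands were wider and richer in reads of both libraries than the median island of the table. The median island of these genes had 21 peak-library reads and 8 control-library reads, whereas the median nuclear island had 16 and 4. Their median width was 1800 bp, against 1400 bp over all nuclear islands. The plot of all 23 islands shows that the largest island of Pim1, Ccnd2, Ccnd3, Myc, Cdkn1a and Cdkn1b each held at least 40 peak-library reads, while the islands of Myb, Cdk6 and Ccne1 held between 14 and 22.

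**Figure D1:**
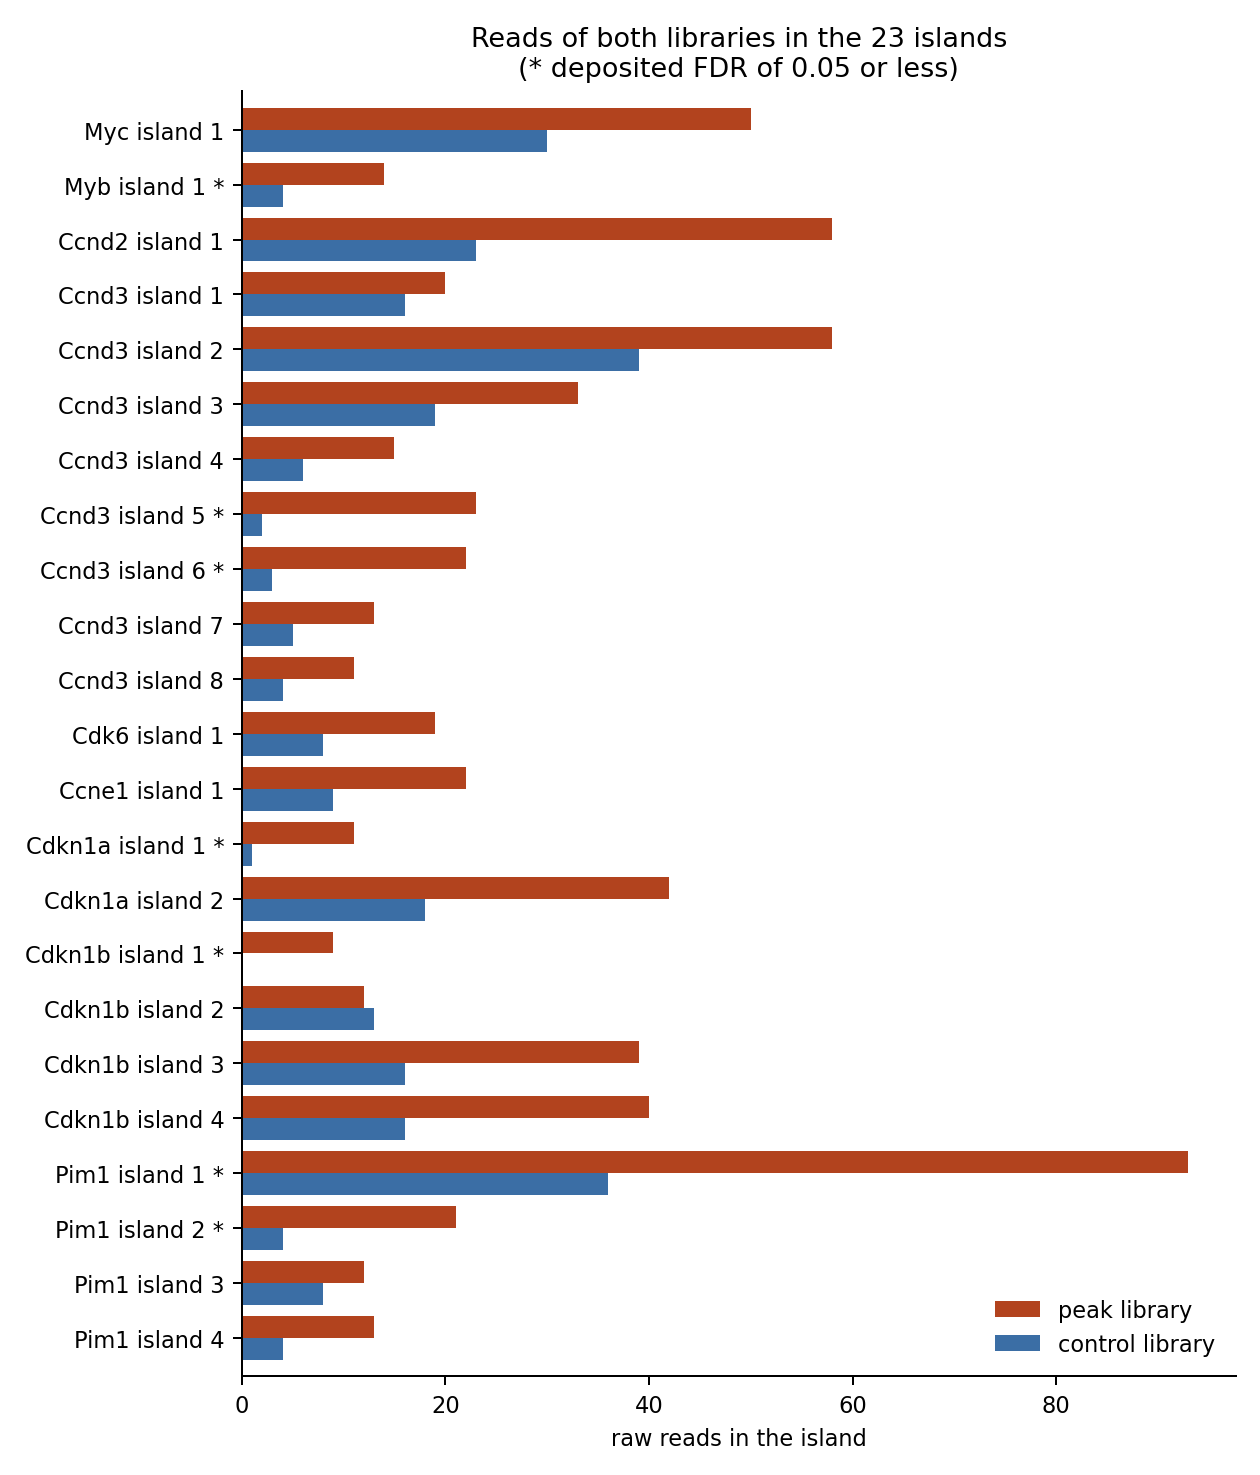
Raw reads of the peak library (upper bar) and of the control library (lower bar) in each of the 23 islands, numbered along each gene's chromosome from low to high coordinates. The Pim1 island with 93 peak and 36 control reads has the most reads, and in 1 island, at Cdkn1b with 12 peak and 13 control reads, the control library had more raw reads.

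**Figure D2:**
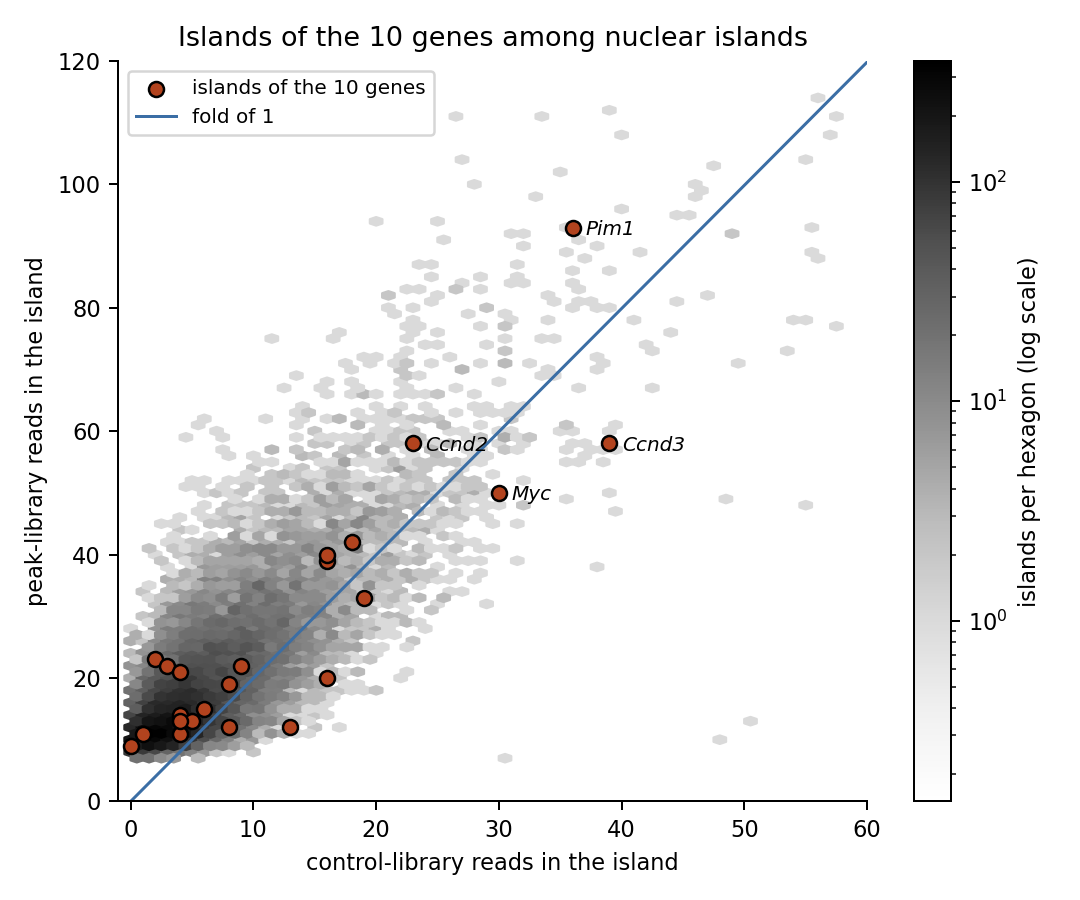
Peak-library reads against control-library reads for nuclear islands of under 200 peak reads (grey hexagons, log colour scale, with 18 islands outside the plotted range) and for the 23 islands of the 10 genes (red points). Points below the blue line have a fold below 1, among them the read-rich islands of Ccnd3, with 58 peak and 39 control reads, and Myc, with 50 peak and 30 control reads.

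Myc, the master regulator of growth and of cell cycle entry in many cell types, had 1 island, over its low-coordinate end (chromosome 15, 61983201 to 61988200). The peak library had 50 reads there and the control library 30, a fold of 0.835 (interval 0.520 to 1.36) with an FDR of 1. By control-library reads this island ranked 159th of the 19531, and by peak-library reads 519th. Of the genes with a single island, Myc alone had a fold below 1, whereas Myb, Ccnd2, Cdk6 and Ccne1 had one above it. Pooled folds of the other 8 genes with an island were above 1, and the interval of every one of the 9 included 1, whereas 26.1% of protein-coding genes with an island had an interval above 1 and 0.100% had one below it.

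Myb, a factor of blood progenitor proliferation, had 1 island inside the gene body, centred 2484 bp after its start (chromosome 10, 21158001 to 21159000). It held 14 peak and 4 control reads, a fold of 1.75 (0.550 to 7.31) and an FDR of 0.0295. This was the highest pooled fold among the 9 genes, and also the widest interval, since it rests on the fewest reads.

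Of the D-type cyclin genes, Ccnd3 had 8 islands, Ccnd2 had 1 and Ccnd1 had none. The Ccnd2 island, on chromosome 6 at 127151201 to 127156600, lay over the high-coordinate end of the gene and overlapped the lncRNA gene 9330179D12Rik. It had 58 peak and 23 control reads and a fold of 1.26 (0.767 to 2.15), with an FDR of 0.0560 that just missed the threshold. It was 5400 bp wide and ranked 292nd of all islands by peak-library reads. Nearest to Ccnd1 was an island 13931 bp from the gene towards lower coordinates, outside the 10 kb on either side, with 36 peak and 9 control reads, a fold of 2.00 (0.947 to 4.73) and an FDR of 0.000193. The next island lay 171 kb away on the other side, with 11 peak and 0 control reads.

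Ccnd3 encodes cyclin D3, the D-type cyclin best known for lymphocyte expansion, and its 8 islands fell into groups along the gene. At least 4 islands lay at 6.48% of protein-coding genes. The 3 islands around the first start had folds below 1, namely 20 peak and 16 control reads centred 2.95 kb before the start, 58 peak and 39 control reads over it and 33 peak and 19 control reads at 6.85 kb after it. Their folds were 0.626 (0.308 to 1.29), 0.745 (0.488 to 1.15) and 0.870 (0.480 to 1.62), so none was separated from 1 by its interval. The first of the 3 also overlapped the neighbouring gene Taf8. The island over the start ranked 74th of all islands by control-library reads and is the one whose promoter, with a FOXO motif and 2 GC boxes, is printed above.

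Further inside Ccnd3 lay both islands in which the interval of the fold excluded 1. The island at 22.3 kb after the start (chromosome 17, 47526001 to 47528800) held 23 peak and 2 control reads, a fold of 5.76 (1.42 to 50.4) and an FDR of 1.44e-10. The island at 76.3 kb (47580801 to 47582000) held 22 peak and 3 control reads, a fold of 3.67 (1.10 to 19.2) and an FDR of 6.78e-07. These 2 were the only ones of the 23 islands whose interval lay above 1, a result that 15.1% of nuclear islands gave. The other 3 islands inside the gene, 1 of them over the promoter window of the second start, had 15 peak and 6 control reads, 13 peak and 5 control reads and 11 peak and 4 control reads and folds between 1.25 and 1.38. Over the 8 islands Ccnd3 had 195 peak and 94 control reads, a pooled fold of 1.04 (0.808 to 1.34).

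The kinase and cyclin genes that act beside the D-type cyclins had 1 island each. Cdk6, which encodes a catalytic partner of the D-type cyclins, had its island inside the annotated gene body but 1.29 kb before the RefSeq start, where it also overlapped the lncRNA gene Gm36470. With 19 peak and 8 control reads its fold was 1.19 (0.497 to 3.14) and its FDR 0.234. Cdk6 is the longest of the 10 genes, at 190005 bp, and no other island lay along that length. Ccne1, which encodes cyclin E1, had an island over its start with 22 peak and 9 control reads, a fold of 1.22 (0.542 to 3.02) and an FDR of 0.187. The GC-rich promoter of Ccne1 printed above lies inside it.

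Both CDK inhibitor genes had an island upstream that held almost exclusively peak-library reads, besides islands with more reads of both libraries. Cdkn1a encodes p21, a target of p53 that stops the cycle. Its upstream island, 10.2 kb before the first start and 9779 bp from the gene body (chromosome 17, 29080401 to 29081200), had 11 peak and 1 control reads, a fold of 5.51 (0.801 to 237) and an FDR of 6.91e-06. The second island of Cdkn1a, 3.82 kb after the first start and over part of the window of the second start, had 42 peak and 18 control reads and a fold of 1.17 (0.658 to 2.16).

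Cdkn1b encodes p27, the inhibitor that keeps resting lymphocytes out of the cycle, and had 4 islands. The outermost upstream one, centred 4.50 kb before the start (chromosome 6, 134915601 to 134916200), had 9 peak and 0 control reads and an FDR of 2.08e-09. Set against a floor of 3 control reads in the island, the 9 peak reads gave a fold of 1.50. The exact lower bound with the error of the 9 reads included was 0.988, so the fold was not separated from 1. The deposited fold of 18.0 for this island rests on a stand-in of 0.25 control reads. The neighbouring island, 2.90 kb before the start, was the only one of the 23 with more raw reads in the control library, 12 peak and 13 control reads, and a fold of 0.462 (0.193 to 1.10). The island over the start had 39 peak and 16 control reads and a fold of 1.22 (0.667 to 2.34), and the one past the far end, which overlaps the lncRNA gene Lockd, had 40 peak and 16 control reads and 1.25 (0.686 to 2.39).

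Pim1, a serine/threonine kinase gene induced by cytokines through STAT factors, held the most reads in a single island among the 10 genes. This island spans both annotated starts (chromosome 17, 29488801 to 29494800) and is 6000 bp wide. It had 93 peak and 36 control reads, which ranked 57th by peak-library and 98th by control-library reads, with a fold of 1.29 (0.872 to 1.96) and an FDR of 0.0140. The next island, 90 bp past the gene body, had 21 peak and 4 control reads, a fold of 2.63 (0.887 to 10.5) and an FDR of 0.000121. The outer pair had 12 peak and 8 control reads with a fold of 0.751 (0.282 to 2.12) and 13 peak and 4 control reads with a fold of 1.63 (0.503 to 6.85). The pooled fold of Pim1 was 1.34 (0.967 to 1.88).

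**Figure D3:**
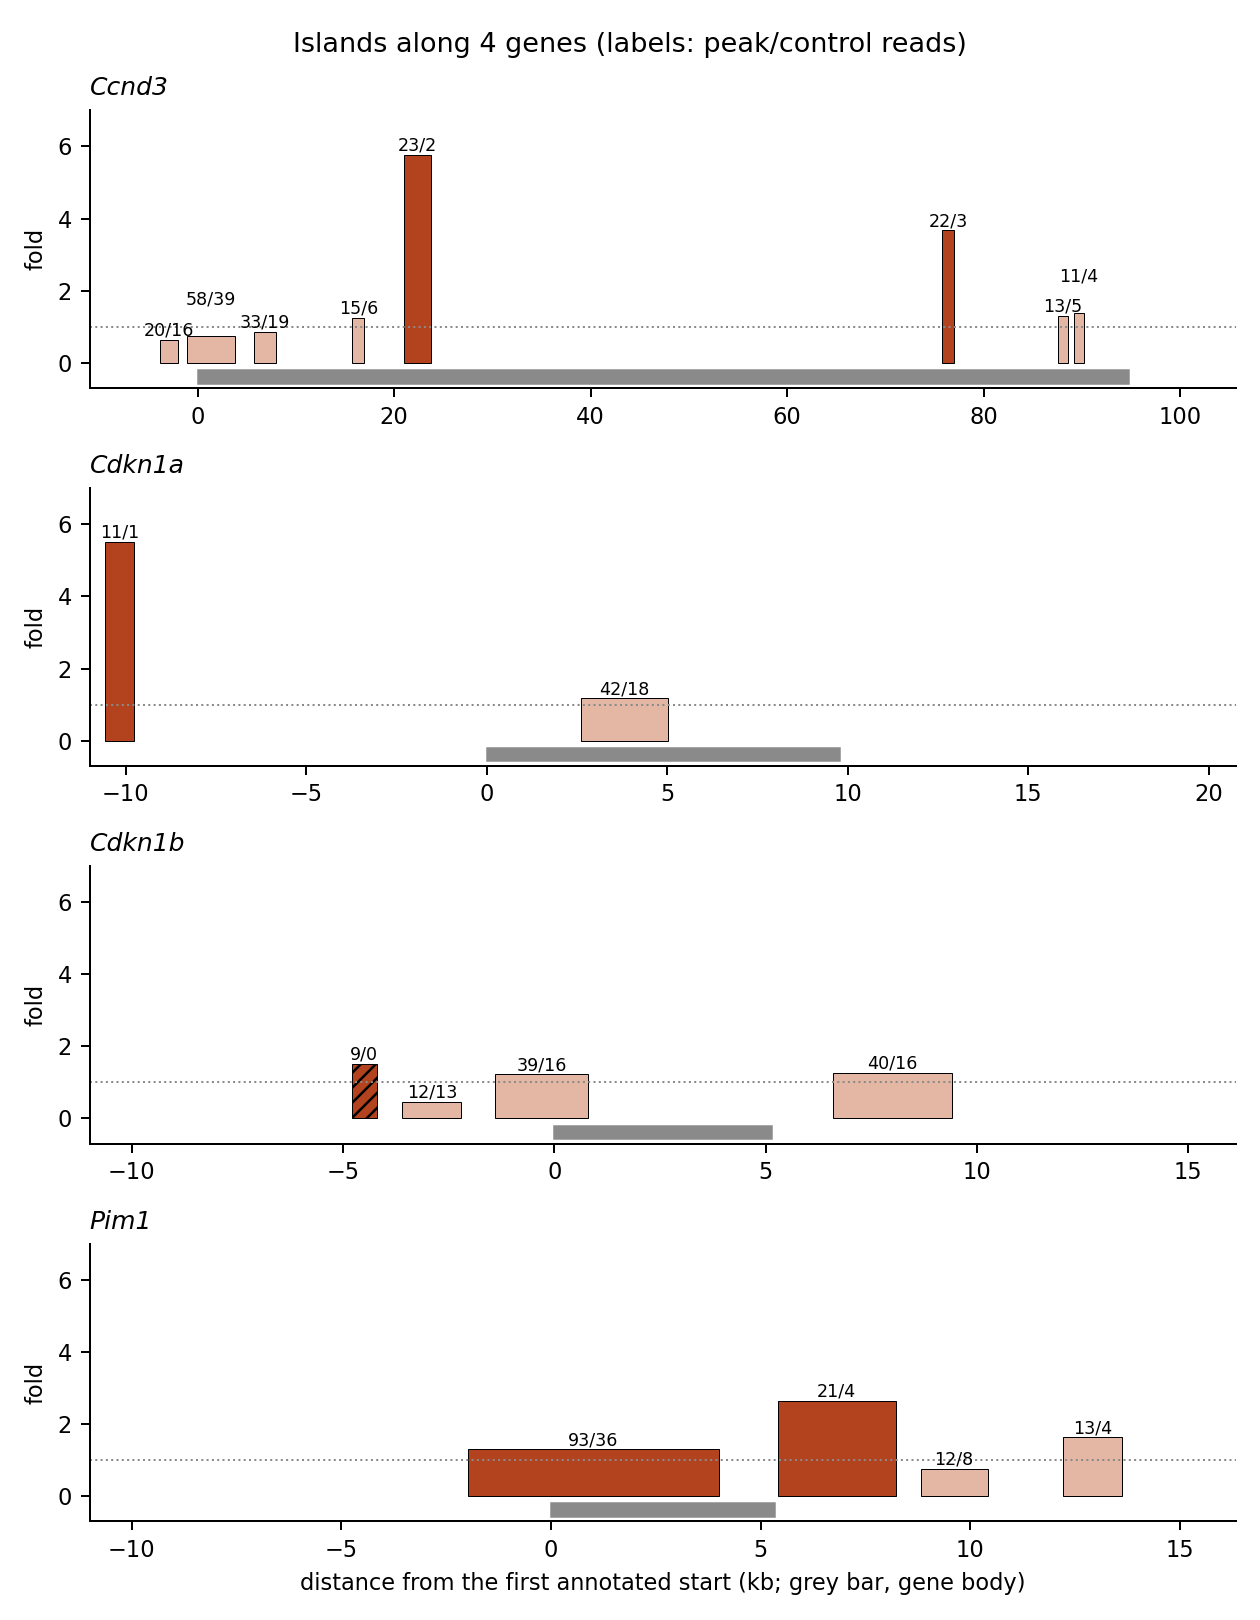
Islands along Ccnd3, Cdkn1a, Cdkn1b and Pim1, drawn to scale by distance from the first annotated start (kb), with the fold as bar height, the gene body as a grey bar, dark bars for an FDR of 0.05 or less and reads of the peak and control library as labels. The hatched Cdkn1b bar, without control reads, is drawn at 1.50, its value against a floor of 3 control reads. Its exact lower limit is 0.988. In Ccnd3 the bars at 22.3 and 76.3 kb reach 5.76 and 3.67, and the 3 bars around the start stay below 1.

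Ordered by pooled fold, the genes ran from Myb at 1.75, Cdkn1a at 1.40 (0.814 to 2.50) and Pim1 at 1.34 through Ccnd2 at 1.26, Ccne1 at 1.22, Cdk6 at 1.19 and Cdkn1b at 1.11 (0.775 to 1.62) to Ccnd3 at 1.04 and Myc at 0.835. The intervals of all neighbours in this order overlap. The pooled fold lay below the background of 1.62 in 8 of the 9 genes, all but Myb, and the upper bounds of Myc (1.36), Ccnd3 (1.34) and, narrowly, Cdkn1b (1.619) lay below the background value of 1.621. Over all nuclear islands, the most read-rich included, the pooled fold was 1.40, and against it the bounds of Myc and Ccnd3 lay below while that of Cdkn1b did not. An exact binomial test, two-sided, set the reads of each gene against the background share of 76.4% peak-library reads, with Benjamini-Hochberg adjustment over all 11974 protein-coding genes with an island. It compares the reads of 2 libraries and leaves out the spread between genes. None of the 9 genes passed, and 3 had an unadjusted p below 0.05 towards the control library by this exact test, as had 6.21% of all genes with an island: Ccnd3 (adjusted p = 0.0818, 67.5% peak-library reads), Myc (0.226, 62.5%) and Cdkn1b (0.492, 69.0%). Over all genes, 0.418% passed towards the control library and 0.117% towards the peak library. With 50 kb on either side Ccnd3 did pass, at an adjusted p of 0.0197 by the same exact test. Narrower settings went the other way. With gene bodies alone the smallest adjusted p of the 9 genes by that exact test was 0.273, at Myc. Without islands over another protein-coding gene it was 0.265, also at Myc. The pooled fold of Ccnd3 was 1.12 (0.856 to 1.49) under either setting.

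**Figure D4:**
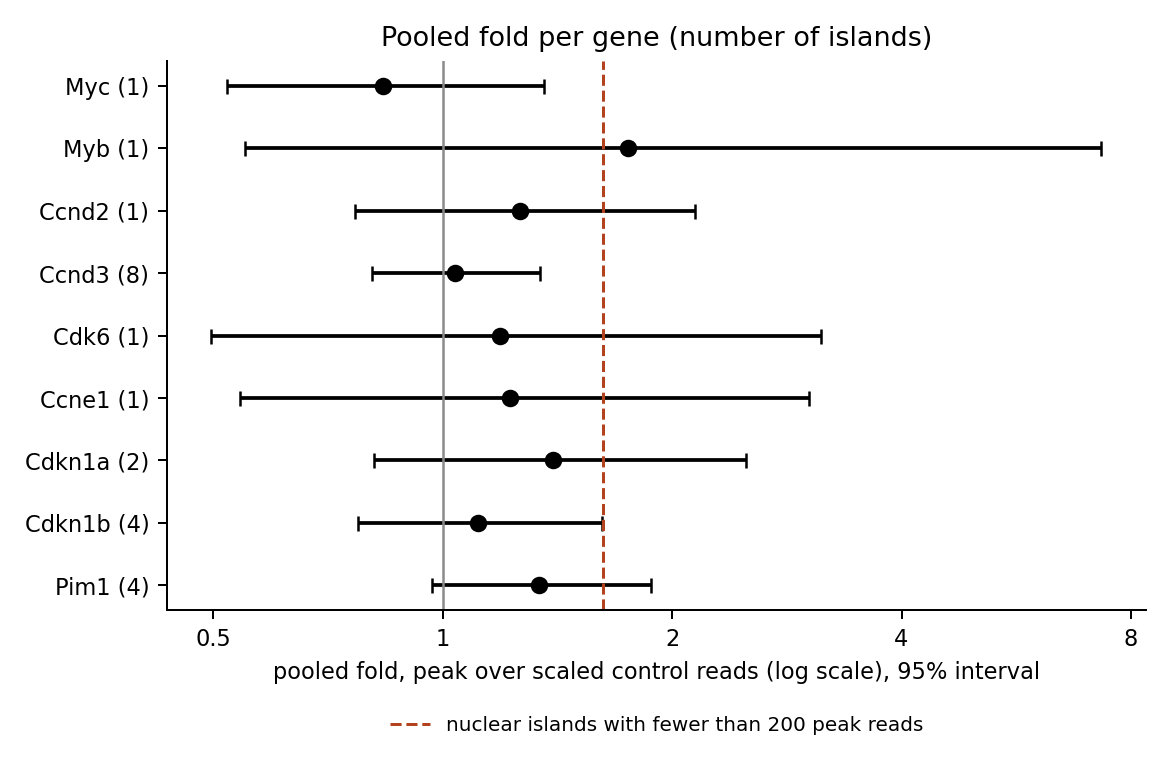
Pooled fold of peak-library over scaled control-library reads for the 9 genes with an island (points, log scale, number of islands in brackets) with exact 95% intervals. Every interval crosses the grey line at 1, and 8 of the 9 points lie left of the dashed line at the background fold of 1.62.

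Islands over gene ends were also set apart from the rest. Of the 23 islands 9 lay within 1 kb of an end of a protein-coding gene, against 42.1% of nuclear islands. Those 9 had a median fold of 1.22 and the other 14 a median of 1.34, while over all nuclear islands the medians were 1.56 at gene ends and 2.17 away from them. Called islands made up 22.2% of the 9 islands and 35.7% of the 14, against 54.7% and 68.3% over all nuclear islands. Among islands with at least 30 peak-library reads, the 8 at these genes had a median fold of 1.19 and 1 of them was called. The 2974 nuclear islands with 30 or more but fewer than 200 peak reads had a median of 1.50, and 61.1% were called. Against a background of islands over gene ends alone, where the pooled fold was 1.45, the smallest adjusted p of the exact binomial test was 0.322, at Ccnd3.

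Around Myc, the wider interval held few islands, and each of these had a higher fold than the one over the gene. By fold the island over Myc ranked 18491st of the 19531, so most islands elsewhere had a higher fold too. Within 2 Mb of Myc lay 14 islands, against a median of 41 (quartiles 22 and 70) over all protein-coding genes, and 15.9% of genes had as few or fewer. Of the 14 islands 9 were called, a share near the 62.6% of all nuclear islands. The 13 islands outside the gene had 213 peak and 50 control reads and a pooled fold of 2.13 (1.56 to 2.96), against 0.835 (0.520 to 1.36) over the gene itself. The background of 1.62 lies inside the interval of the 13 islands. These islands are unlike the one over Myc in size, with between 10 and 31 peak reads each against 50. The median fold was 2.00 over nuclear islands with fewer than 30 peak reads. It was 1.50 over those with 30 or more but fewer than 200. The island over Myc also lies at a gene end, where the median over nuclear islands was 1.56, against 2.17 away from gene ends.

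On the high-coordinate side, 5 islands lay within Pvt1, the lncRNA gene that starts 47.6 kb beyond Myc and is known for enhancers that contact Myc. They had 83 peak and 22 control reads, a pooled fold of 1.89 (1.17 to 3.18), and 4 of the 5 were called, beside 62.6% of all nuclear islands. The interval holds the background of 1.62. The strongest of them, at 62169201 to 62170200 and 179 kb from Myc, held 23 peak and 4 control reads, a fold of 2.88 (0.984 to 11.5). Its neighbour 187 kb from Myc had 19 peak and 8 control reads and a fold of 1.19 (0.497 to 3.14), and the one at 190 kb had 11 peak and 2 control reads and 2.75 (0.601 to 25.6). Beyond Pvt1 the table lists 3 islands between 744 and 834 kb from Myc, the strongest with 15 peak and 2 control reads, a fold of 3.76 (0.873 to 33.8) and an FDR of 2.21e-05. Between there and 2 Mb on that side it lists none.

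On the low-coordinate side, the 2 highest folds of the window lay within a group of 3 islands 1.15 to 1.16 Mb from Myc, at the protein-coding gene Lratd2. They held 31 peak and 4 control reads with a fold of 3.88 (1.37 to 15.1), 16 peak and 1 control reads with 8.01 (1.24 to 336) and 20 peak and 5 control reads with 2.00 (0.730 to 6.83). The first overlaps Lratd2 and the lncRNA gene 9930014A18Rik, so nearness to Myc does not assign them to it. A further pair near the edge of the window, 1.84 and 1.89 Mb away, had 10 peak and 2 control reads and 17 peak and 6 control reads.

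**Figure D5:**
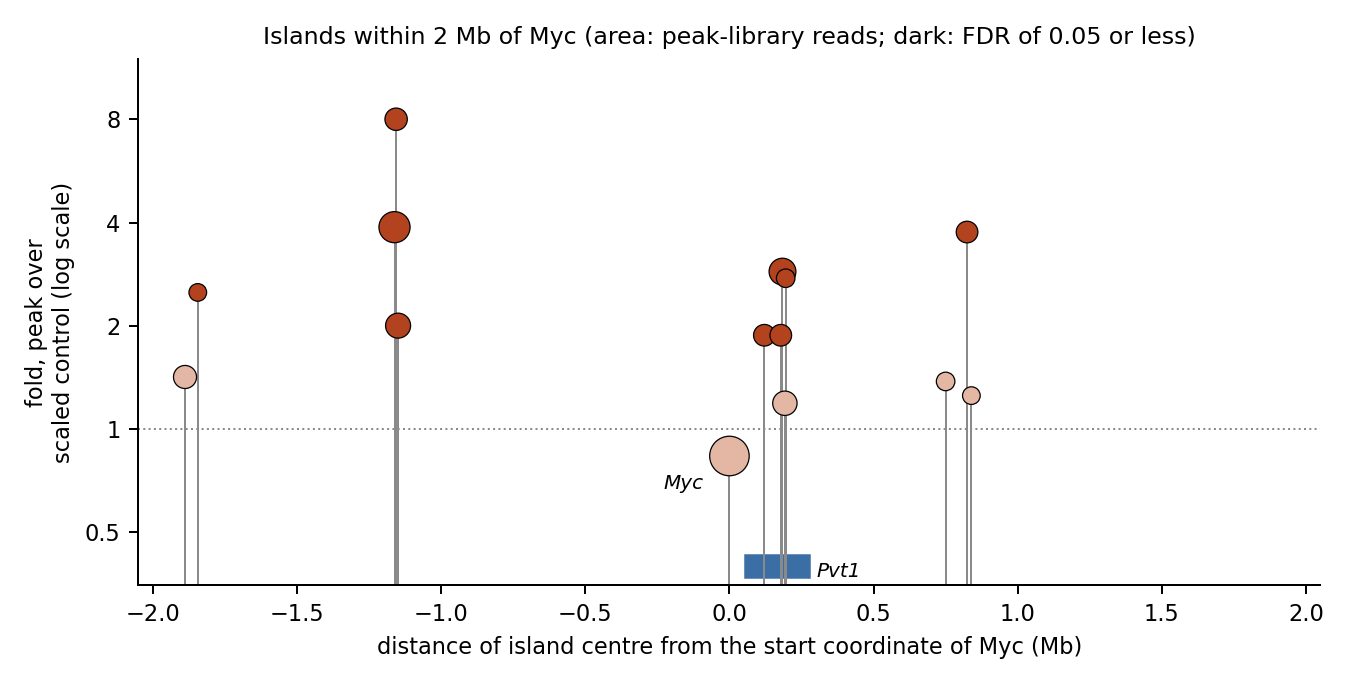
Fold of peak-library over scaled control-library reads (log scale) for the 14 islands within 2 Mb of Myc by distance from the gene's start coordinate (Mb), with symbol area by peak-library reads and dark symbols for an FDR of 0.05 or less. The island over Myc is the largest symbol and the only one below a fold of 1, at 0.835.

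Of the other genes, Cdk6 had 8 islands within 2 Mb, Ccne1 14, Ccnd1 24, Ccnd2 46, Cdkn1b 48, Ccnd3 65, Myb 75, Pim1 96 and Cdkn1a 97. Cdk6 had the fewest, and 8.99% of genes had as few or fewer islands. Its gene body begins at 3341004, near the low end of chromosome 5. The counts were not corrected for parts of a window near a chromosome end in which no island can lie. A low count therefore need not mean sparse islands.

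Other genes of the same pathway, listed by role with earlier results of these data known, had islands at 54 of 63 genes, and 41 of them had a called one. The backgrounds for genes are the 54.7% and 40.3% given above, and those for islands a called share of 62.6% and a median fold of 1.84. Called islands were 9 of 14 at the G1 and S phase genes, 7 of 8 at other CDK inhibitor genes and 13 of 27 at RB and E2F genes. They were 17 of 30 in the MYC and MAX network, 4 of 5 at other MYB and PIM genes and 6 of 9 at ubiquitin ligase genes. The replication and mitosis list had 15 of 33. Of 8 cyclin, CDK and activator genes of G1 and S phase 7 had an island, all but Cdk7, and the median fold of their 14 islands was 2.00. Cdk4, the other partner of the D-type cyclins, had 4 islands with 92 peak and 28 control reads and a pooled fold of 1.65 (1.07 to 2.61). Ccne2, the second cyclin E gene, had 3 with 57 peak and 12 control reads and 2.38 (1.26 to 4.87).

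Of 5 further CDK inhibitor genes 3 had an island, with a median fold of 2.75 over 8 islands. Cdkn2c, which encodes the CDK4 and CDK6 inhibitor p18, had 5 islands, all of them called, with 116 peak and 21 control reads and a pooled fold of 2.77 (1.73 to 4.64). Cdkn2d, which encodes p19, had 2 with 68 peak and 26 control reads and 1.31 (0.822 to 2.14), and Cdkn1c and Cdkn2a had none. Of 13 RB and E2F family genes 10 had an island, with a median fold of 1.67. Rb1, the retinoblastoma gene, had 6 with 133 peak and 43 control reads and 1.55 (1.09 to 2.24), and its relative Rbl1 had 6 with 98 peak and 37 control reads and 1.33 (0.900 to 1.99). Tfdp2, an E2F partner, had 29 peak and 6 control reads and 2.42 (0.987 to 7.13), while E2f6, E2f7 and Tfdp1 had none.

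All 11 genes of the MYC and MAX network had an island, with a median fold of 1.67 over 30 islands. Mycn, the relative of Myc, had 2 islands with 27 peak and 3 control reads and a pooled fold of 4.51 (1.39 to 23.2). Mlxip, a MAX-like network gene, had 6 islands with 71 peak and 18 control reads and 1.98 (1.16 to 3.52). All 4 other MYB and PIM genes had an island, with a median fold of 2.00, and Pim2 had 2 with 31 peak and 7 control reads and 2.22 (0.958 to 5.97). All 3 genes for ubiquitin ligase subunits of G1 had one as well. Fbxw7, whose product marks cyclin E and MYC for destruction, had 5 islands with 75 peak and 17 control reads and 2.21 (1.29 to 3.99), and Cks1b had 3 with 73 peak and 17 control reads and 2.15 (1.26 to 3.89).

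Of 19 genes of DNA replication and mitosis 16 had an island, all but Mki67, Cdk1 and Ccnb2. Their 33 islands had a median fold of 1.25, the same as that of the 23 islands, and 15 of the 33 were called, against 62.6% of all nuclear islands. Cdc6, a replication licensing factor gene, had 5 islands with 88 peak and 27 control reads and a pooled fold of 1.63 (1.05 to 2.61). Aurkb, a mitotic kinase gene, had 5 with 151 peak and 80 control reads and 0.945 (0.716 to 1.26), and was the only gene of the 63 to pass the exact binomial test against the background (adjusted p = 0.0388). Mcm6, a subunit gene of the replicative helicase, had 1 with 32 peak and 8 control reads and 2.00 (0.904 to 5.03).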

How the data were processed

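Per the submitters' processing notes, reads were handled with Bowtie2 2.4.2 and SICER 2.0 on mm10; the sources used here do not give window, gap or duplicate settings. Per the file headers, the deposited table holds whole, unscaled read counts of 2 libraries for each island. Its fold is the authors' ratio of peak to scaled control reads. The p-value and the FDR of each island were also deposited by the authors. Positions count from 1, after adding 1 to the table's starts and ends. Fixation was in 1% formaldehyde for 10 minutes and digestion for 3 minutes at 37 °C, per the labels' protocols.

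Genes came from a RefSeq table of GRCm38.p6, the mm10 build, on placed nuclear chromosomes. Pooled folds sum reads over a gene's islands, with conditional binomial 95% intervals after Clopper and Pearson. The exact binomial test of read shares ran over all protein-coding genes with an island, with Benjamini-Hochberg adjustment, in SciPy 1.17.1. Its code was checked on reads simulated from the same binomial model, without further spread between genes. That check cannot show how well the test holds for these data. With 1 library per group no test between conditions was possible. The members and gene lists were chosen with earlier results of these data known. Named pathway genes are, per list, up to 2 with the most islands, the highest pooled fold with at least 20 peak reads, and those without an island. Ties for the second place by number of islands are not named. The Lratd2 islands as a group, those nearest to Ccnd1 and Aurkb's place in the test were singled out after their values were seen. Alternatives changed the locus, overlap, read minimum, shared islands, scaling and FDR. The gene-end background and leaving out Ccnd3 were added after the data were seen.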

Additional observations from a re-analysis of the deposited data

How the results depend on the processing

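The scaling factor decides on which side of 1 most pooled folds fall. With equal totals, a shift of -0.36 in log2 fold, 5 genes moved below 1: Ccnd2 to 0.987, Ccne1 to 0.956, Cdk6 to 0.929, Cdkn1b to 0.870 and Ccnd3 to 0.812. The median fold of the 23 islands was then 0.978. With unscaled reads, a shift of 1.00, Myc moved to 1.67, the median fold of the 23 islands to 2.50, and 8 genes had an interval above 1 where none had with the authors' factor. With islands of at least 20 peak-library reads Ccnd3 moved to 0.989. The read-share test does not use the factor.

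Counts moved with the locus. With gene bodies alone there were 15 islands, and 4 called ones at 3 genes. With 5 kb on either side 6 islands at 4 genes were called, as with at least 50% of the island inside the locus. Under both settings the upstream island of Cdkn1a, 9779 bp from the gene body, dropped out. With 50 kb on either side 13 islands at 8 genes were called, 1 gene had an interval above 1 (Pim1, 1.49) and 1 passed the read-share test (Ccnd3). With at least 20 peak-library reads there were 13 islands and 4 called ones at 2 genes, and around Myc 4 islands with 3 called. At an FDR of 1e-05 or less there were 4 islands at 3 genes, and 2 around Myc. Within 1 Mb of Myc there were 9 islands with 5 called. The share of called islands stayed between 26.7% and 39.4% under the locus, overlap, read minimum and shared-island alternatives and was 33.3% without Ccnd3, below the share of all islands in each. The number of genes with an island moved by less than 1.5 times under the alternatives run for it. Most islands rest on few control reads, which limits each fold. No paired analysis was possible because each group has 1 library.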
